A study of Mus musculus with 6 samples.

Results

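Interferon-stimulated genes were followed in single-cell libraries of the mouse small-intestinal epithelium as a list of 42 symbols, all of which were present among the 27998 genes of the deposited matrices. The list was set by symbol, and its 2 larger groups were 12 genes usually led by type I interferon (Ifit, Oas, Isg15 and Rsad2 genes) and 8 usually led by interferon-gamma (Igtp, Irgm, Iigp1 and Gbp genes). The other members were 4 transcription factors, 6 sensors of foreign nucleic acid, 3 membrane proteins that restrict viruses and 9 further genes. Gbp6 stood under 2 identifiers, of which ENSMUSG00000079362 had 0 UMIs in every library and ENSMUSG00000104713 was used.

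Interferons are secreted proteins that warn cells of infection. Type I interferons, and type III interferons in epithelia, act through a complex with Stat2 and Irf9, which binds the interferon-stimulated response element (ISRE) of antiviral genes. Interferon-gamma, made mainly by T cells and natural killer cells, acts through gamma-activated sites (GAS) and induces GTPases that attack pathogens inside cells. Gut epithelium responds to these signals and keeps a low tonic expression of many of the genes without infection.

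Epithelial cells for the 6 libraries came from small intestine of 8-week-old C57BL/6J mice. In 3 libraries the mice are labelled wild-type, and in 3 they carry the genotype label Itgb7-/- and the title Itgb7 KO. Itgb7 encodes the integrin β7 subunit, with which gut lymphocytes bind E-cadherin on epithelial cells, and the series title asks about T cells that carry it and the fate of stem cells. The labels do not say how many animals gave each library, how the allele was made or where its deletion lies. Each p-value is therefore set against the spread of 3 libraries a group, some or all of which may be technical. Libraries held 2773 to 5738 barcodes and 28475253 to 76133693 UMIs (a UMI marks 1 captured RNA molecule), and 25076 cells were kept. Of these, 21071 fell in clusters that were named as epithelial classes by marker genes, and 12.4% to 17.2% of a library's cells stayed unnamed. The Itgb7 transcript had 3, 4 and 1 UMIs in kept cells of wild-type replicates 1, 2 and 3, and 17, 28 and 11 in those labelled Itgb7 KO, which goes against the label. A 3′ count does not show whether the deleted part was read. Paneth cell marker RNA summed to 61500 and 39100 UMIs per 1000000 UMIs (CPM) in the libraries numbered 1 of both groups, while the remaining 4 held 2620 to 3300 CPM. Pairs of libraries shared 12 to 42 cell barcodes.

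The stretches before the start sites of 7 members are shown because they carry the response elements by which the list is known. Each is the 130 bases just before a RefSeq start site of mouse build GRCm38.p6, written 5′ to 3′ along the gene. Capitals mark GAAANNGAA, the core of the ISRE, or TTCNNNGAA, the GAS, on either strand, where the first reads TTCNNTTTC on the other strand.
Isg15: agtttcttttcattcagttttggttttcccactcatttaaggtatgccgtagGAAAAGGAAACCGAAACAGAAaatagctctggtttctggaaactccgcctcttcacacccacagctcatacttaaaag
Ifit1: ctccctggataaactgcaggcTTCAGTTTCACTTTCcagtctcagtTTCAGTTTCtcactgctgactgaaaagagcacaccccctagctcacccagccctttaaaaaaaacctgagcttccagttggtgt
Oas1a: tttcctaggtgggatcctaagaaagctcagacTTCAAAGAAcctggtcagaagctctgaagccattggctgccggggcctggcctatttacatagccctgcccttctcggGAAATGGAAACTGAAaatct
Gbp2: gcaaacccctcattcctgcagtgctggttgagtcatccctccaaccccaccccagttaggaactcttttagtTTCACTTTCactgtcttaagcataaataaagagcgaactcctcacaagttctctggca
Igtp: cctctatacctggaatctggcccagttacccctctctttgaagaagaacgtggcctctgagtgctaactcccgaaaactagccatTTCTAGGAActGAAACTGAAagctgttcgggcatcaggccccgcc
Irgm2: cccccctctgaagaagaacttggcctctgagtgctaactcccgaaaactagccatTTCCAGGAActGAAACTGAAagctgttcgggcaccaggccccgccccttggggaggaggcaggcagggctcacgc
Irf1: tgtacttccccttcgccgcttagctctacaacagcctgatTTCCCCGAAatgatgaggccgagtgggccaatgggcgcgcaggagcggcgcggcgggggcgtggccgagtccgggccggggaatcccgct
They lie at chr4:156200819-156200948 on the minus strand for Isg15, chr19:34640759-34640888 on the plus strand for Ifit1 and chr5:120907526-120907655 on the minus strand for Oas1a. Those of Gbp2 at chr3:142620533-142620662, Igtp at chr11:58199426-58199555, Irgm2 at chr11:58214847-58214976 and Irf1 at chr11:53769884-53770013 are on the plus strand. In the type I-led genes shown, Isg15, Ifit1 and Oas1a, the ISRE core stood in tandem. This was not particular to that group. Of the interferon-gamma-led genes not shown, Gbp3 held 2 copies at 44 and 38 bases before a start, and Irgm1 2 at 30 and 24 bases. Type I-led Oasl1, Oasl2 and Ifit2 held none in the 300 bases examined around a start, and Rsad2 held 1. The ISRE core of Isg15, a ubiquitin-like protein, began 78, 72 and 66 bases before its start, and the copies overlap. Ifit1, which binds viral RNA that lacks a host cap, held 3 copies at 109, 103 and 84 bases before its start. Oas1a, a 2′-5′ oligoadenylate synthetase, held 2 at 20 and 14 bases. Igtp and Irgm2, immunity-related GTPases that are neighbours on chromosome 11, each held a GAS followed by an ISRE core. Their stretches were identical at 94 of 100 aligned bases. Irf1, a transcription factor that interferon-gamma induces, held a GAS at 90 bases and no ISRE core.

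RefSeq promoter windows of 300 bases (250 before a start and 50 after) were matched for 34 of the 42 members. The ISRE core was found in 23 of these 34 (67.6%), against 9.76% of 27025 genes with a window. The GAS was found in 10 (29.4%), against 9.55%. By group, the ISRE core stood in 8 of 11 type I-led genes, 6 of 6 interferon-gamma-led genes, 4 of 4 sensors, 3 of 3 membrane genes, 1 of 4 transcription factors and 1 of 6 of the rest. The GAS stood in 2 of 11 type I-led and 3 of 6 interferon-gamma-led genes. In Ifitm3 and Bst2, a GAS match overlapped an ISRE match. A match is a description of the letters in the window.

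Levels of the members spanned a wide range. Their mean over the 6 libraries, in all named epithelial cells together, ran from 0.360 CPM for Gbp6 to 363 CPM for Ifi27l2b. Of the 42, 26 lay under 10 CPM and 6 under 1 CPM. The most abundant were Ifi27l2b, of the Ifi27 family, and the membrane proteins Ifitm2 (336 CPM) and Ifitm3 (201 CPM), which hinder virus entry. CPM of these 3′ libraries does not grow with transcript length. Reads of genes that are near copies could still be split or dropped by the counting, so levels of different genes compare only roughly.

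All 42 members had a higher fitted level in the libraries labelled Itgb7 KO than in wild-type, and 0 passed the test. The fits used edgeR's quasi-likelihood test on UMI sums per library with Benjamini-Hochberg adjustment over all 13355 genes tested, of which 0.0150% were called. Adjusted p of the members ran from 0.951 to 0.986. Their median log2 fold change was 0.96, against -0.00 for all genes tested, of which 49.1% lay above 0. Unadjusted p was under 0.05 with a higher level for 24 of 42 members (57.1%), against 1.96% of all genes. Every library labelled Itgb7 KO was above every wild-type library for 21 members (50%), against 2.49% of all genes. DESeq2 called 2 of the members, Ifit1 and Iigp1 (adjusted p = 0.00841 and 0.00788), and 0.157% of the genes it tested.

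One library carried much of the size of the difference. Itgb7 KO replicate 1 was the highest of all 6 libraries for 33 of 42 members. The share of all genes highest in that library was not worked out. Without Itgb7 KO replicate 1 the median log2 fold change was 0.51, 39 of 42 members stayed above 0, and 12 had an unadjusted p under 0.05. That smaller fit put 18.8% of all genes under 0.05. Without wild-type replicate 2, 8 of 42 had an unadjusted p under 0.05, against 2.82% of all genes in either direction. Without wild-type replicate 1, 15 did, against 3.09%. Wild-type replicate 1 and Itgb7 KO replicate 1 also carry serial numbers in the deposited file names apart from the other 4, and the labels do not say what the numbers mark. Between these 2, the library labelled Itgb7 KO was higher for 40 of 42 members (95.2%), against 71.0% of all genes. Among the other 4, both libraries labelled Itgb7 KO were above both wild-type libraries for 22 of 42 (52.4%), against 23.2%.

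**Figure D1:**
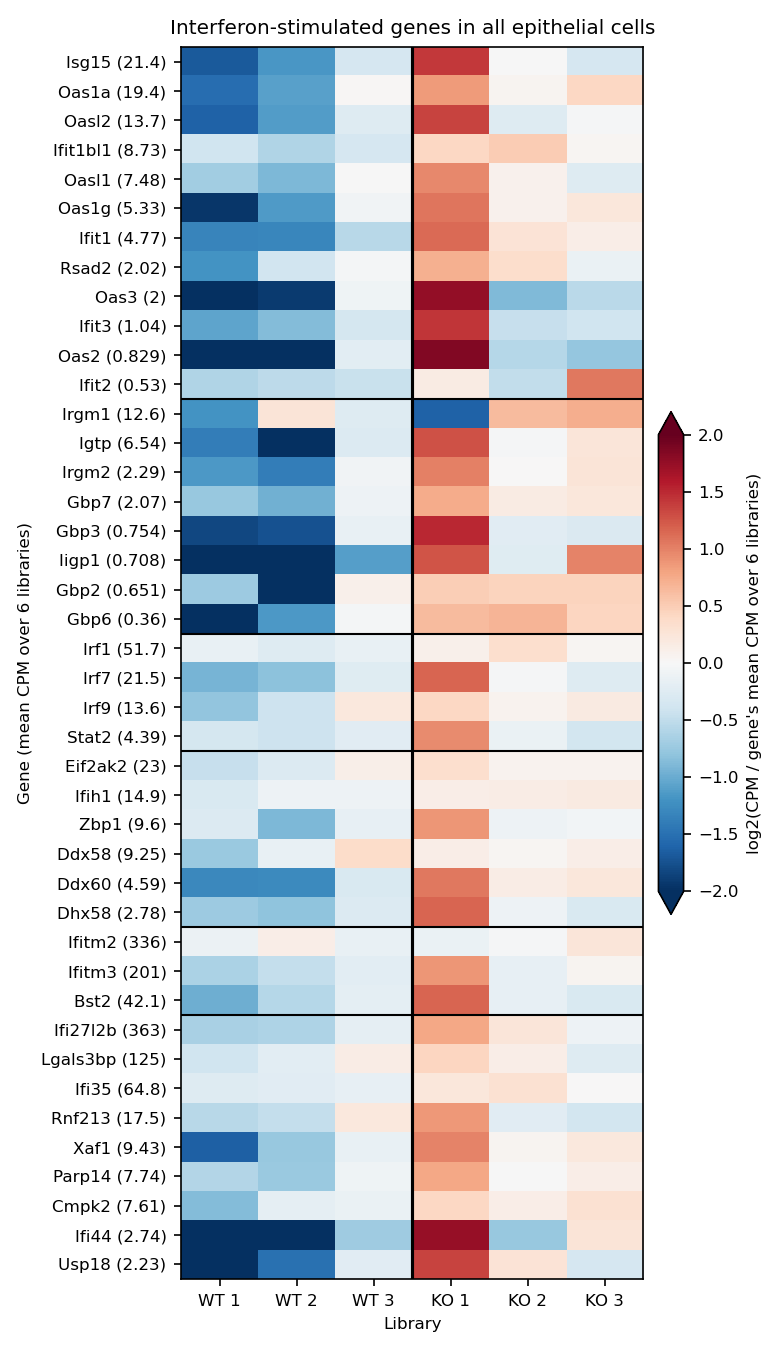
Level of each of the 42 genes (rows, in groups by role, with the mean CPM in brackets) in each library (columns, WT for wild-type and KO for libraries labelled Itgb7 KO), as log2 of CPM over the gene's mean of 6 libraries. The column of KO 1 is the highest for 33 genes, and Irgm1 is low in WT 1 and KO 1.

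Type I-led genes encode proteins that bind, tag or degrade viral RNA and protein. Summed over the 12, they reached 34.7, 42.3 and 76.6 CPM in wild-type replicates 1, 2 and 3, and 192, 90.0 and 88.7 CPM in those labelled Itgb7 KO. The groups did not overlap, and wild-type replicate 3 lay nearer to Itgb7 KO replicates 2 and 3 than to the other wild-type libraries. The ratio of the means was 2.41, or 1.75 without Itgb7 KO replicate 1. It was 5.53 between the 2 libraries numbered 1, and 1.5 among the other 4. Isg15 had 6.72, 9.51 and 16.9 CPM in wild-type and 57.1, 21.3 and 17.0 CPM in the libraries labelled Itgb7 KO. Wild-type replicate 3 and Itgb7 KO replicate 3 were thus level for this gene (log2 fold change 1.59 ± 0.54 SE, edgeR adjusted p = 0.951; 0.72 without Itgb7 KO replicate 1). Ifit1 had 1.90, 1.92 and 3.23 CPM against 10.5, 5.78 and 5.25 CPM, with all 3 libraries labelled Itgb7 KO above wild-type (1.63 ± 0.37, edgeR adjusted p = 0.951). Across the 12, log2 fold changes ran from 0.73 for Ifit1bl1 to 2.27 for Oas2, with a median of 1.36 and 7 unadjusted p under 0.05.

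Interferon-gamma-led genes encode GTPases of the immunity-related (Igtp, Irgm1, Irgm2, Iigp1) and guanylate-binding (Gbp) families. Their sum was 11.1, 19 and 22.2 CPM in wild-type and 33.2, 33.3 and 37.2 CPM in the libraries labelled Itgb7 KO, a ratio of means of 1.99. It was 2.02 without Itgb7 KO replicate 1. Irgm1, a regulator of the other GTPases, took a large share of that sum and followed a different order. It had 5.52, 15.1 and 10.6 CPM in wild-type and 4.10, 19.5 and 21.0 CPM in those labelled Itgb7 KO (log2 fold change 0.47 ± 0.52 SE, edgeR adjusted p = 0.951). Both libraries numbered 1 were the lowest for this gene. Without Itgb7 KO replicate 1 its value was 0.90. The sum of the other 7 was 5.56, 3.92 and 11.6 CPM against 29.1, 13.8 and 16.3 CPM, with no overlap and with Itgb7 KO replicate 1 the highest.

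Iigp1, which disrupts the vacuoles of intracellular parasites, had the largest fitted difference of the list. It reached 0.137, 0.0816 and 0.331 CPM in wild-type and 1.69, 0.600 and 1.41 CPM in the libraries labelled Itgb7 KO (log2 fold change 2.74 ± 0.61 SE, edgeR adjusted p = 0.951). The wild-type values rest on 9, 4 and 17 UMIs. Igtp had 2.52, 1.39 and 5.40 CPM against 15.8, 6.42 and 7.72 CPM, again without overlap (1.71 ± 0.56, edgeR adjusted p = 0.951; 1.08 without Itgb7 KO replicate 1). The sum of type I-led over interferon-gamma-led genes was 3.13, 2.22 and 3.45 in wild-type and 5.77, 2.71 and 2.38 in the libraries labelled Itgb7 KO. These ratios overlapped between the genotypes. Without Irgm1 they were 6.23, 10.8 and 6.61 against 6.58, 6.54 and 5.44, which overlapped too. Whether the 2 groups of genes differ in their genotype difference was not tested.

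Among the transcription factors, Irf7, which amplifies interferon production, had 11.2, 12.1 and 18.2 CPM in wild-type and 48.1, 21.0 and 18 CPM in those labelled Itgb7 KO. The third library of each group was level (log2 fold change 1.10 ± 0.43 SE, edgeR adjusted p = 0.951). Without Itgb7 KO replicate 1 it was 0.40. Irf1 had 46.6, 43.4 and 46.8 CPM against 55.5, 64.9 and 52.9 CPM, a small difference (0.29 ± 0.14) in which no library of one group reached the other. Irf9 and Stat2 stood at 0.51 ± 0.24 and 0.61 ± 0.39, the second at -0.03 without Itgb7 KO replicate 1.

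Sensors detect viral RNA or DNA in the cytoplasm. Ddx60, a helicase, had 1.88, 1.90 and 3.73 CPM in wild-type and 9.56, 5.09 and 5.38 CPM in the libraries labelled Itgb7 KO (log2 fold change 1.44 ± 0.39 SE, edgeR adjusted p = 0.951). Eif2ak2, the double-stranded RNA-activated kinase that halts translation, had 16.6, 19.1 and 25 CPM against 28.9, 24.2 and 24.0 CPM, which overlapped (0.33 ± 0.18). Ifih1 and Ddx58, receptors of viral RNA, differed by 0.29 ± 0.12 and 0.20 ± 0.22.

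The membrane proteins did not move alike. Ifitm2 had 309, 369 and 304 CPM in wild-type and 307, 329 and 397 CPM in those labelled Itgb7 KO, with full overlap (log2 fold change 0.04 ± 0.15 SE, edgeR adjusted p = 0.986). It was -0.05 without wild-type replicate 3 or without Itgb7 KO replicate 3. Ifitm3 had 129, 145 and 173 CPM against 371, 179 and 208 CPM, with no overlap (0.77 ± 0.32; 0.28 without Itgb7 KO replicate 1). Bst2, which tethers budding virus to the cell surface, had 21.5, 28.3 and 36.7 CPM against 94.5, 37.5 and 34.0 CPM. Itgb7 KO replicates 2 and 3 lay near wild-type replicate 3, and replicate 1 stood far above (0.98 ± 0.44; 0.21 without it).

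Of the further genes, Ifi27l2b had 231, 236 and 321 CPM in wild-type and 619, 430 and 339 CPM in the libraries labelled Itgb7 KO, without overlap (log2 fold change 0.81 ± 0.28 SE, edgeR adjusted p = 0.951; 0.44 without Itgb7 KO replicate 1). Ifi35, an adaptor in interferon signalling, had 54.3, 55.5 and 57.9 CPM against 76.2, 79.7 and 65.1 CPM. Its wild-type libraries lay close together, and all 3 others were higher (0.36 ± 0.14). Lgals3bp, a secreted glycoprotein that binds galectins, had 94.7, 108 and 138 CPM against 168, 137 and 105 CPM, which overlapped (0.26 ± 0.23; -0.02 without Itgb7 KO replicate 1). Rnf213, a large ubiquitin ligase, was at 0.46 ± 0.39 and at -0.17 without that library. Usp18, the protease that removes Isg15 from proteins and dampens the type I receptor, was at 1.71 ± 0.58.

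**Figure D2:**
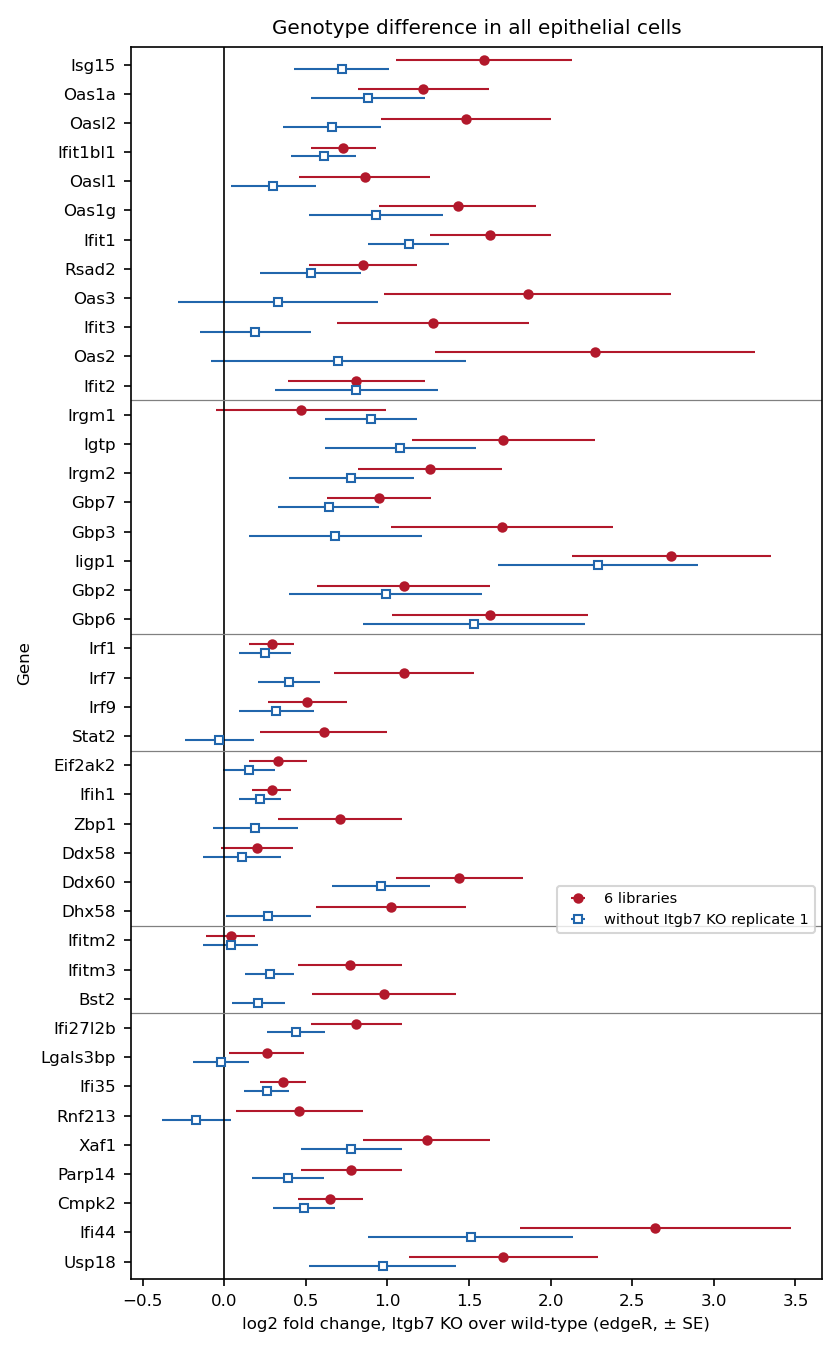
Log2 fold change of each gene, libraries labelled Itgb7 KO over wild-type, in all named epithelial cells (edgeR, bars are ± 1 SE), with all 6 libraries (filled circles) and without Itgb7 KO replicate 1 (open squares). All 42 filled circles lie above 0, and 39 open squares do.

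Genes that make, sense, transmit or brake the interferon signal, and further targets of it, were taken from a list of 52 named by pathway. Of the 52, 50 were found and 34 tested, and 14 of those tested were further targets. Of these 34, 0 were called and 6 had an unadjusted p under 0.05, as did 3.15% of all genes in either direction. Of the 6, 5 were further targets and 1 was a brake. Of 9 interferon genes, only Ifnl2 had a UMI, 1 in wild-type replicate 2. RNA of the other interferon genes was not detectable at this depth. The 6 receptor genes differed by at most 0.23 on the log2 scale, for example Ifngr1 at 0.04 ± 0.12 and Ifnar1 at -0.08 ± 0.12. Jak1, a kinase bound to the receptors, was at -0.03 ± 0.10. Psmb8, a subunit of the immunoproteasome that cuts peptides for MHC class I, had 121, 106 and 137 CPM in wild-type and 241, 241 and 235 CPM in those labelled Itgb7 KO (log2 fold change 0.94 ± 0.17 SE, edgeR adjusted p = 0.646). Its 3 libraries labelled Itgb7 KO were level in all epithelial cells together. Within mature enterocyte-like cells Psmb8 had 174, 159 and 161 CPM against 416, 282 and 282 CPM, with replicate 1 the highest. Cxcl10, a chemokine that attracts T cells, leaned the other way at -0.69 ± 0.44.

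RNA of immune cells was sparse in these matrices. The 11 T cell markers found summed to 0.466 to 3.08 CPM in wild-type and 0.188 to 0.522 CPM in those labelled Itgb7 KO. Of 9 myeloid markers, Itgax was at 0, and the sum was 48.3 to 251 CPM against 552 to 578 CPM. Nearly all of that was Cd74, the MHC class II chaperone that epithelial cells also make. Without Cd74 the myeloid sum was 0.483 to 3.23 against 0.563 to 2.49 CPM. The part of any of these in the differences was not tested.

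Cell classes were compared next, since a mixture of cells can hide where RNA comes from. The cells were clustered without the 42 genes and the pathway list. Mature enterocyte-like cells, which absorb nutrients at the villus, held more RNA of most members than stem-like cells, named from markers of the dividing stem cells of the crypt. Of 36 members tested, 29 were higher in mature enterocyte-like cells (80.6%, against 40.2% of 11561 genes) and 3 were lower (8.33%, against 41.9%). The fit compared both classes within each library with edgeR. The median log2 difference was 1.24, against -0.03 for all genes.

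Type I-led genes were higher in mature enterocyte-like cells for 9 of 10 tested. Ifit1 averaged 0.813 ± 0.440 CPM in stem-like and 11.6 ± 8.64 CPM in mature enterocyte-like cells (SD, n = 6 libraries), and was higher in the latter in 6 of 6 libraries. Its fitted difference was 3.89 ± 0.28 SE on the log2 scale (edgeR adjusted p = 3.61e-10). Isg15 averaged 10.3 and 37.9 CPM (2.02 ± 0.12, edgeR adjusted p = 4.24e-11). Zbp1, a sensor of Z-form nucleic acid that can start cell death, averaged 1.59 and 11.3 CPM (2.94 ± 0.22, edgeR adjusted p = 7.66e-10). All 4 transcription factors and 5 of 6 sensors were also higher, with Irf7 at 2.14 ± 0.13. Irgm1 (0.32 ± 0.13, edgeR adjusted p = 0.0371) missed the threshold in 9 of the alternatives, for example at 0.12 with scaling by library size only.

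The 3 lower genes were Ifitm2, Ifitm3 and Iigp1. Ifitm3 averaged 666 ± 255 CPM in stem-like and 36.2 ± 27.3 CPM in mature enterocyte-like cells, and fell in 6 of 6 libraries (log2 difference -4.12 ± 0.12 SE, edgeR adjusted p = 1.24e-15). Though left out of the clustering, it was the leading gene of the largest stem-like cluster. Ifitm2 averaged 698 ± 71.8 and 140 ± 14.7 CPM (-2.12 ± 0.05, edgeR adjusted p = 3.49e-16). Iigp1 averaged 1.40 and 0.144 CPM (-2.94 ± 0.53, edgeR adjusted p = 6.74e-05), and the filter on low counts removed it without Itgb7 KO replicate 1 or 3. Bst2 did not differ beyond its error (-0.02 ± 0.10), and Ifit2, which the filter on low counts removed, was higher in stem-like cells in 6 of 6 libraries (1.35 and 0.309 CPM).

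**Figure D3:**
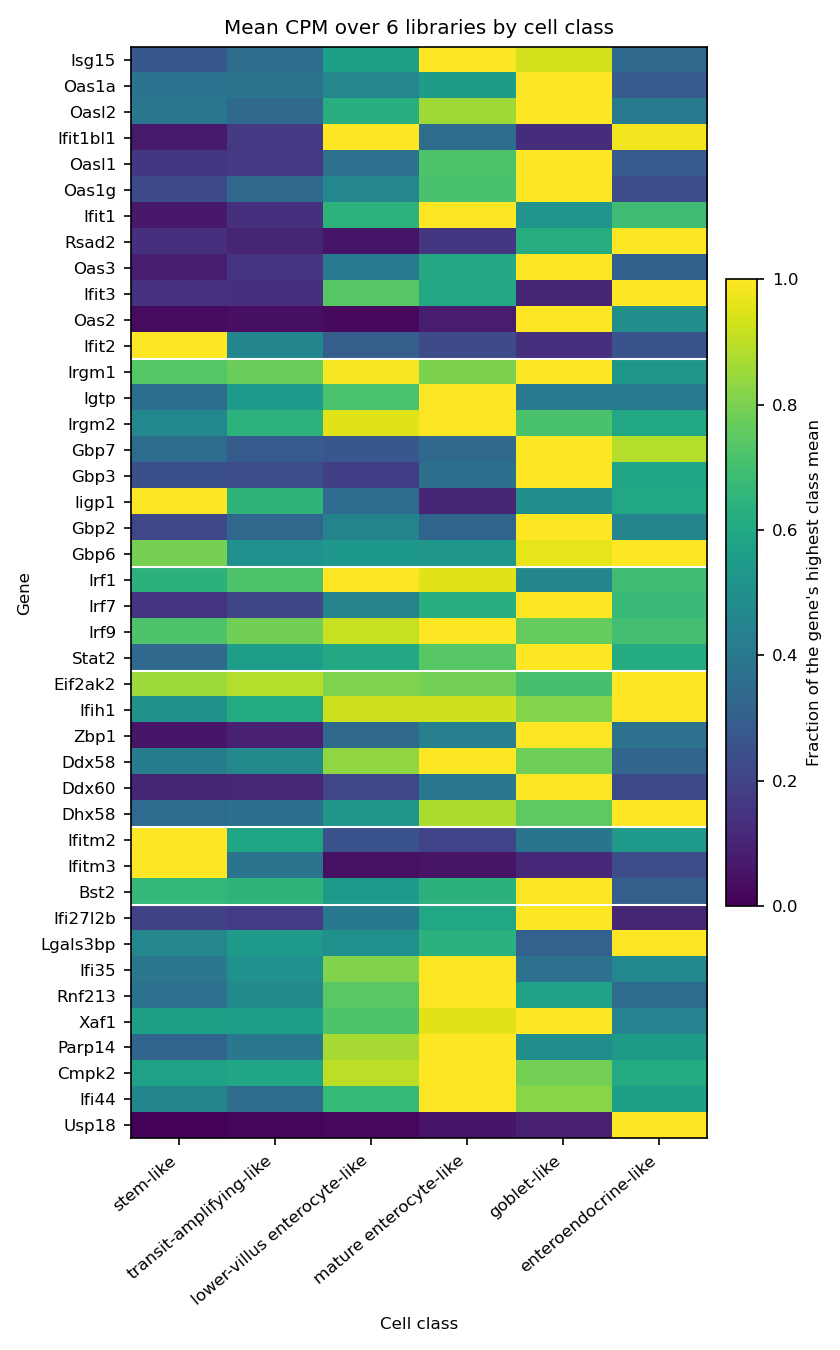
Mean CPM over 6 libraries of each gene (rows, in groups by role) in 6 cell classes (columns), as a fraction of the gene's highest class mean. Most rows are brightest in goblet-like or mature enterocyte-like cells, while Ifitm2, Ifitm3, Iigp1 and Ifit2 are brightest in stem-like cells.

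Set in order over 6 classes, 17 members had their highest mean in goblet-like cells, which secrete mucus, 11 in mature enterocyte-like, 8 in enteroendocrine-like, 2 in lower-villus enterocyte-like and 4 in stem-like cells. These orders are a description, and for 10 members the same class was highest in all 6 libraries. Shares over all genes were not worked out. Ifi27l2b averaged 820 ± 306 CPM in goblet-like, 490 ± 249 CPM in mature enterocyte-like and 85.6 ± 64.8 CPM in enteroendocrine-like cells. Oas2, Oas3, Ddx60 and Bst2 were also highest in goblet-like cells in 6 of 6 libraries. The goblet-like class was itself uneven. Isg15 averaged 72.1 CPM in the goblet-like cluster led by Fcgbp and Zg16, 26.6 CPM in that led by Serpina1b, 24.1 CPM in that led by Ccl9 and 18.3 CPM in that led by Atoh1, a secretory progenitor gene.

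Single members had patterns of their own. Usp18 averaged 43.5 ± 21.1 CPM in enteroendocrine-like cells, which make gut hormones, and at most 3.80 CPM in the other 5 classes. It was highest there in 6 of 6 libraries, with 7 to 52 UMIs in each. Within that class it averaged 67.9 ± 37.1 CPM in the cluster led by peptide hormones such as Gcg and Cck. In the cluster led by Chgb and Tac1 it averaged 27.4 ± 18.5 CPM, a difference that was not tested. Isg15, the protein that Usp18 removes, averaged 12.9 CPM in enteroendocrine-like cells and 35.3 CPM in goblet-like cells. Of the 12 type I-led genes, 2 (Rsad2 and Ifit3) had their highest mean of 6 classes in enteroendocrine-like cells. Lgals3bp was likewise highest in enteroendocrine-like cells in 6 of 6 libraries, at 261 ± 68.0 CPM. Ifit1bl1, a relative of Ifit1, averaged 29.8 ± 13.0 CPM in lower-villus enterocyte-like, 29.3 ± 21.6 CPM in enteroendocrine-like and 2.16 ± 0.393 CPM in stem-like cells. It was higher in lower-villus enterocyte-like than in enteroendocrine-like cells in 4 of 6 libraries, a difference that was not tested. Ifi35 was highest in mature enterocyte-like cells in 6 of 6 libraries (113 ± 24.8 CPM).

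Within classes the genotypes were compared again, and 0 members were called by edgeR in any of the 6 classes tested. The mean of the libraries labelled Itgb7 KO was the higher one for all 42 members in the goblet-like, mature enterocyte-like and transit-amplifying-like classes. It was so for 41 in the lower-villus enterocyte-like, 40 in the stem-like and 33 in the enteroendocrine-like class. Without Itgb7 KO replicate 1 the count was 41 in the goblet-like, 39 in the lower-villus enterocyte-like and 37 in the transit-amplifying-like class. It was 35 in the mature enterocyte-like, 34 in the stem-like and 27 in the enteroendocrine-like class. Of all genes tested in a class, 48.1% to 50.5% had a fitted log2 fold change above 0 with all 6 libraries. Members tested after the filter on low counts are a part of the 42, so the counts that follow cover them alone. In stem-like cells, 9 of 31 had an unadjusted p under 0.05 with a higher level (29.0%, against 1.04% of all genes) and 7 did not overlap (22.6%, against 3.03%), while 0.00913% of genes were called. In transit-amplifying-like cells these were 12 of 33 (36.4%, against 1.32%) and 9 (27.3%, against 3.11%), with 0% called. In lower-villus enterocyte-like cells they were 19 of 32 (59.4%, against 1.77%) and 13 (40.6%, against 3.51%), with 0.00975% called. Mature enterocyte-like cells gave 14 of 35 (40%, against 1.66%) and 13 (37.1%, against 3.16%), with 0% called. Goblet-like cells gave 30 of 38 (78.9%, against 1.42%) and 22 (57.9%, against 2.78%), with 0.00902% called. Enteroendocrine-like cells gave 0 of 11 for both, against 0.581% and 2.10%, with 0% called. They were few, with 27 to 141 cells in a library. Without Itgb7 KO replicate 1, 0 of 31 members in stem-like cells had an unadjusted p under 0.05, against 15.9% of all genes. Transit-amplifying-like cells gave 5 of 33 (17.0% of genes) and mature enterocyte-like cells 5 of 35 (13.9%). Lower-villus enterocyte-like cells gave 9 of 32 (14.8%), goblet-like cells 19 of 38 (14.2%) and enteroendocrine-like cells 1 of 11 (3.57%). These counts hold both directions.

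Of the 6 classes, goblet-like cells had the highest share of tested members without overlap (57.9%, against 2.78% of all genes). Whether the genotype difference there differed from that in other classes was not tested. Ddx60 had 4.82, 5.13 and 9.13 CPM in wild-type goblet-like cells and 20.1, 21.0 and 20.6 CPM in those labelled Itgb7 KO (log2 fold change 1.71 ± 0.24 SE, edgeR adjusted p = 0.365). The 3 libraries labelled Itgb7 KO were level and all above wild-type. DESeq2 called it, with Ifit1, Isg15, Oasl2 and Ifi27l2b, and 0.0716% of the genes tested. It was the one member that edgeR called without the filter on low counts (adjusted p = 0.0288, with 0.0179% of genes called) and with the 2 groups of serial numbers as a block (adjusted p = 0.0351, with 0.0176% called). Ifit1 had 1.28, 0.764 and 3.16 CPM against 11.6, 13.0 and 6.53 CPM (2.61 ± 0.45, edgeR adjusted p = 0.790). Isg15 had 9.57, 11.8 and 24.9 CPM against 72.0, 51.2 and 42 CPM (1.88 ± 0.35). Ifi27l2b had 505, 522 and 677 CPM against 1180, 1180 and 864 CPM (0.93 ± 0.17). For these genes no library of one group reached the other. Without Itgb7 KO replicate 1 the median of the 38 tested members was 0.85, from 1.07.

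Mature enterocyte-like cells depended more on that library. Isg15 had 14.9, 18.8 and 20.2 CPM in wild-type and 121, 32.3 and 20.5 CPM in those labelled Itgb7 KO (log2 fold change 1.74 ± 0.60 SE, edgeR adjusted p = 0.945). Bst2 had 16.1, 24.6 and 26.5 CPM against 120, 28.2 and 26.3 CPM, and Irf7 had 16.7, 15.2 and 16.8 CPM against 77.8, 26.3 and 18.6 CPM. In both, Itgb7 KO replicate 1 stood far above and replicate 3 lay near wild-type. Igtp had 4.03, 2.39 and 5.54 CPM against 37.4, 7.79 and 13.4 CPM (2.31 ± 0.61, edgeR adjusted p = 0.945), and DESeq2 called it (adjusted p = 0.0316, with 0.0433% of genes called). The median of the tested members was 0.89, and 0.25 without Itgb7 KO replicate 1. In stem-like cells it went from 0.55 to 0.19 and in transit-amplifying-like cells from 0.88 to 0.27. In lower-villus enterocyte-like cells the median went from 0.84 to 0.46.

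The difference between the genotypes was itself compared between mature enterocyte-like and stem-like cells by an interaction term. Of 36 members tested, 0 were called (edgeR, lowest adjusted p = 0.828), as were 0% of all genes. Unadjusted p was under 0.05 for 7 (19.4%, against 4.49% of genes), led by Igtp (log2 difference 1.06 ± 0.28 SE), and DESeq2 also called 0 members and 0.00572% of genes. The median was 0.27, and 0.05 without Itgb7 KO replicate 1.

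**Figure D4:**
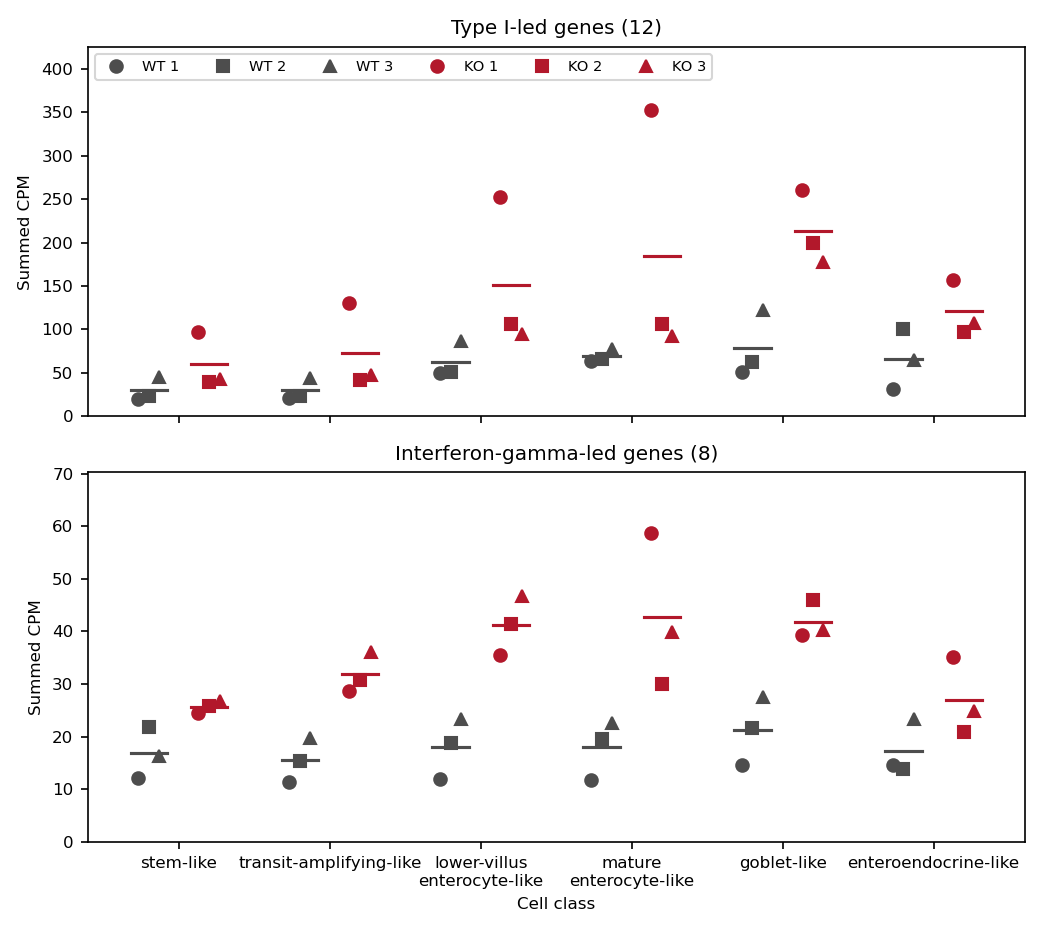
Summed CPM of the 12 type I-led genes (upper panel) and 8 interferon-gamma-led genes (lower panel) in 6 cell classes, 1 point per library (grey for wild-type, red for libraries labelled Itgb7 KO, with shape for the replicate number) and a bar for each group's mean. In goblet-like cells the type I-led sum is 178 to 260 CPM in red and 51.4 to 122 CPM in grey.

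The sums of both groups of genes were then set side by side by class. In goblet-like cells the type I-led sum was 51.4, 62.5 and 122 CPM in wild-type and 260, 199 and 178 CPM in those labelled Itgb7 KO, a ratio of 2.70, and 2.40 without Itgb7 KO replicate 1. Mature enterocyte-like cells had 63.9, 65.6 and 77.0 CPM against 353, 106 and 92.8 CPM, a ratio of 2.67, and 1.44 without that library. Stem-like cells had 20, 23.9 and 45.7 CPM against 96.6, 40 and 43.0 CPM, which overlapped. The interferon-gamma-led sum did not overlap in any of these 3 classes, for example 12.2, 21.8 and 16.3 CPM against 24.4, 25.8 and 26.7 CPM in stem-like cells. Without Irgm1 the stem-like sum was 5.09, 4.81 and 8.96 CPM against 21.1, 8.15 and 11.7 CPM, which overlapped. The goblet-like sum without Irgm1, 7.13, 5.13 and 16.1 CPM against 34.3, 20.5 and 14.9 CPM, overlapped as well. That of mature enterocyte-like cells, 6.95, 4.18 and 10.3 CPM against 53.2, 13.9 and 20.5 CPM, did not.

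Counts per cell were then compared at 1 depth, because wild-type replicate 1 had a median of 22266 UMIs per kept cell and Itgb7 KO replicate 3 had 6074.5. Each cell was thinned to 3000 UMIs, which left out 24 cells of the wild-type libraries and 236 of the libraries labelled Itgb7 KO. A UMI of a type I-led gene was present in 9.73%, 10.5% and 17.1% of wild-type cells, against 37.0%, 18.6% and 19.1% in the other group. The lowest of the latter, with an exact 95% binomial interval of 17.4% to 19.7%, and the highest of the former, with 16.0% to 18.3%, had intervals that overlap. The intervals cover counting error only. Without thinning, when depth differed, the shares were 48.3%, 30.4% and 46.4% against 82.8%, 41.8% and 31.1%. In Paneth-like cells, which had the lowest mean CPM of 20 members but were too few to test, thinned shares were 1.83% to 15.2% and 7.59% to 14.3%.

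Cells with at least 3 different type I-led genes after thinning were rare, at 0.253%, 0.299% and 0.555% in wild-type and 3.99%, 1.02% and 0.990% in those labelled Itgb7 KO. In mature enterocyte-like cells of Itgb7 KO replicate 1 they were 31 of 343 cells (9.04%, 95% interval 6.22% to 12.6%). Goblet-like cells had 0.452%, 0.754% and 1.49% against 5.26%, 3.69% and 2.29%, without overlap. UMIs of interferon-gamma-led genes were present in 3.45%, 5.46% and 6.28% of wild-type cells, against 9.26%, 8.60% and 9.90% in the other group, also without overlap.

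**Figure D5:**
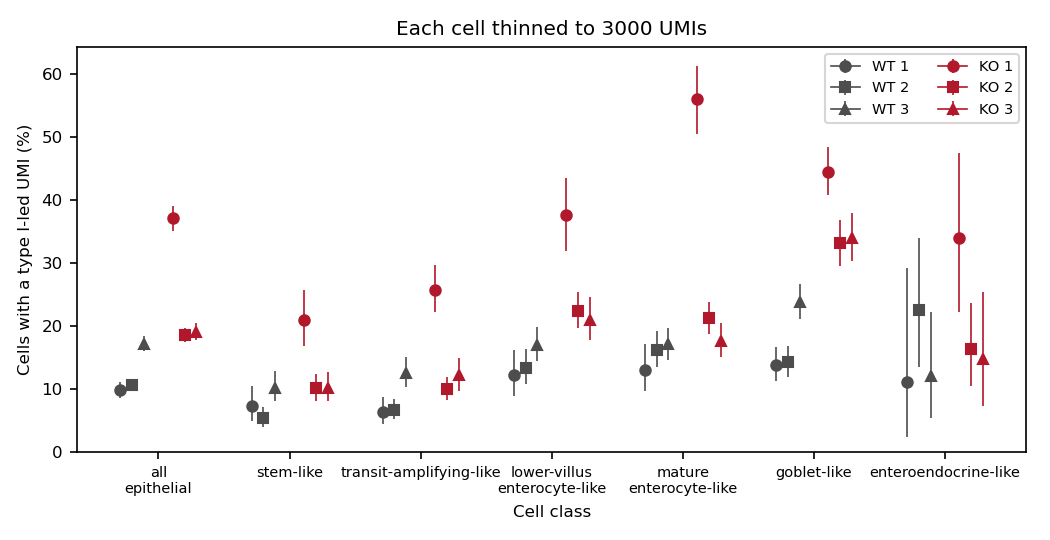
Share of cells with at least 1 UMI of a type I-led gene after thinning each cell to 3000 UMIs, by class and library, with exact 95% binomial intervals (counting error only). The share in KO 1 is the highest of the 6 libraries in every class drawn, at 37.0% in all epithelial cells and 56.0% in mature enterocyte-like cells.

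Several members lie in families of near copies, where reads could be split or dropped by the counting. They are the Oas genes of chromosome 5, the Ifit genes of chromosome 19, the Gbp genes of chromosomes 3 and 5, and Ifitm2 with Ifitm3 on chromosome 7, and their single values are uncertain to that extent. On the GENCODE M21 annotation, 4 members overlap another gene on the same strand, among them Igtp and Irgm2 with each other. A further 7, such as Usp18 and Irf7, overlap one on the other strand, and whether the counting used strand is not given in the sources used here.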

How the data were processed

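The authors deposited raw UMI counts of each gene in each cell barcode, from 10x 3′ libraries. Build mm10, Seurat with no version, Cell Ranger 2.1.1 and bcl2fastq 2.17.1.14 are named in the submitters' processing notes. From these counts, barcodes with at least 500 genes, 1000 UMIs and at most 25% mitochondrial UMIs were kept, and the highest-scoring 0.8% per 1000 barcodes by Scrublet (969) were removed as doublets, since its automatic threshold marked under 0.5% in 2 libraries. The other cells were clustered with scanpy 1.11.5 (2000 variable genes without the members and the pathway list, 30 components, a library correction of the Harmony type, Leiden resolution 1.5). Clusters were named X-like from marker genes, so class results rest on rebuilt names. Of the stem-like cells, 1201 of 3727 lay in a cluster led by S-phase genes, with 1 stem and 1 transit-amplifying marker among its leading 10. Transit-amplifying-like clusters held up to 3 stem markers beside 4 of their own, and 3 mature enterocyte-like clusters held 1 lower-villus marker each among their leading 10.

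UMIs were summed per library and class, for classes with at least 20 cells in each library, and tested with edgeR 4.0.16 (TMM scaling, filterByExpr, quasi-likelihood) at an adjusted p of 0.05, with DESeq2 1.42.0 as an alternative. The fits were tested on simulated data. CPM is per 1000000 UMIs of the class. Deviations from the group means correlated between same-numbered libraries (r = 0.67, 0.28 and 0.28 across genes), so the replicate number was also fitted as a block. For 2 of the 3 wild-type libraries the same-numbered library was the closest. Deviations within a group cancel out, so the r values are not independent and do not establish pairing by number. Values per library are given for members with a mean of at least 20 CPM, and others named were chosen after their values were seen. The members and lists were chosen with earlier results of these data known. With 3 libraries a group, the smallest exact permutation p is 0.1. One gene of the pathway list is not reported here.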

Additional observations from a re-analysis of the deposited data

How the results depend on the processing

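Calls of 0 members by edgeR held for every genotype comparison with scaling by library size, a stricter filter, at least 8000 UMIs per cell, doublets kept and clusters at resolution 1.0, and when each library was left out, except that enteroendocrine-like cells were not run at 8000 UMIs. DESeq2 called 2 members in all epithelial cells, 1 in mature enterocyte-like cells (Igtp) and 5 in goblet-like cells, where edgeR called 1 without the filter and 1 with the 2 groups of serial numbers as a block. Adding the unnamed cells, an alternative chosen after seeing the data, gave 0 calls and a median of 0.94. With the replicate block, 0 members were called in any class, and the median in all epithelial cells was 0.85 with 29 members under an unadjusted p of 0.05, as were 7.05% of all genes, against 3.15% without the block. In the comparison of classes, replacing the library by the replicate block left 25 members higher and 2 lower, with Iigp1 not among the 35 tested, and Ifi44, Oas1a, Xaf1 and Irgm1 were no longer called. In that fit 27 of 35 members were called in either direction, against 8656 of 11350 genes.

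Some directions turned. In all epithelial cells Ifitm2 was at -0.05 without wild-type replicate 3 and at -0.05 without Itgb7 KO replicate 3, and without Itgb7 KO replicate 1 Stat2 was at -0.03, Lgals3bp at -0.02 and Rnf213 at -0.17, while the highest values with a library left out were 0.86, 0.44 and 0.69. Between mature enterocyte-like and stem-like cells, Gbp7 (0.12) was at -0.07 by library size, -0.23 without Itgb7 KO replicate 1 and -0.09 at resolution 1.0, and reached 0.21 without wild-type replicate 3. Bst2 (-0.02) was at 0.01 without the filter, 0.03 without wild-type replicate 1 or 3 and 0.02 without Itgb7 KO replicate 2, and called at -0.21 without Itgb7 KO replicate 1. Iigp1 (-2.94) was at -5.57 and Oas3 (3.02) at 1.98 with doublets kept, and Ifi44 (1.06) was at 0.31 and not called without Itgb7 KO replicate 1. Eif2ak2 (0.08) was at -0.11 by library size and -0.01 without Itgb7 KO replicate 1. No value that turned was called, and the cause was not tested. Scaling by library size moved the median of all genes in that comparison from -0.03 to -0.22. The summed log2 ratio of type I-led genes was 1.27, and 0.80 to 1.68 as each library was left out, and that of interferon-gamma-led genes 0.99, and 0.75 to 1.20. The planned second form of the motif proved to be another spacing (GAANNGAA, 1 base shorter) and stood in 44.1% of members, against 22.7% of genes. Thinning to 3000 UMIs leaves few UMIs of a member in a cell, which limits the shares of cells.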

Other observations

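Tuft-like cells, chemosensory cells that were too few to test (10 to 32 in a library), had the highest mean of 8 classes for 11 members. Oas1a averaged 55.7 ± 24.3 CPM in them, against 36.8 ± 17.4 CPM in goblet-like cells, and Irf7 48.0 ± 27.4 CPM against 45.6 ± 26.2 CPM. These SDs span libraries of both genotypes, and the differences were not tested. Paneth-like cells (19 to 109 in a library) were not tested either. They had the lowest mean for 20 members, for example 3.54 ± 4.91 CPM of Isg15. Each CPM is relative to all UMIs of the class, and the share over all genes was not worked out for either class. Within mature enterocyte-like cells, Ifit1 averaged 28.0 ± 16.6 CPM in the cluster led by Apoa4 and Apoa1. It averaged 3.84 ± 4.81 to 14.7 ± 26.0 CPM in the other 3 clusters. One transit-amplifying-like cluster, whose leading genes hold 3 stem markers, had 679 CPM of Ifitm3, the same as the largest stem-like cluster, while the other 3 had 56.2 to 193 CPM. Among the unnamed cells, Ifitm3 averaged 298 CPM in the cluster led by Neurog3 and 237 CPM in that led by S-phase genes.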
